A study of Mus musculus with 2 samples.

Results

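The cells described here were the Folr2-negative macrophages of the second of 2 sequencing runs, which numbered 3053 of the 20568 barcodes of that run and of the 43965 barcodes of the whole series. A barcode was a member when its unique molecular identifiers (UMIs, each standing for 1 captured RNA molecule) summed to at least 5 for C1qa and C1qb, were at least 1 for Csf1r, were 0 for Folr2, Cd3e and Cd79a, and stayed below 20 for S100a8 and S100a9 together. Members were thus selected on the levels of these 8 genes, which were left out of the gene comparisons and are given below only as a description. The PEP-WT library held 2040 members (21.4% of its 9539 barcodes, exact 95% binomial interval 20.6 to 22.2) and the PEP-619WW library held 1013 (9.18% of 11029, 8.65 to 9.74).

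PEP-WT mice were unmodified C57BL/6 animals, and PEP-619WW mice were C57BL/6 animals in which CRISPR/Cas9 editing of Ptpn22 gave both gene copies the mouse counterpart of the human PTPN22 autoimmunity variant. Per the study's methods, CD45+ cells were sorted from the spleens of 4 to 5 pooled mice per genotype, matched for age and sex, 8 days after infection with LCMV-cl13, the chronic clone 13 form of the lymphocytic choriomeningitis virus. The barcode numbers and the median genes per barcode that the study's methods state for these spleen libraries are those of the second run and not those of the first. The sample labels, which cover both runs, instead name liver, a Jurkat cell line and CD45+ cells that infiltrate a tumor, and this difference between the sources was not settled. Each genotype had 1 library per run with its animals pooled, so there were no replicates, no p-value was computed, and every interval below is an exact 95% interval that covers counting error only.

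Macrophages engulf dying cells, microbes and lipoproteins, and C1q, the first component of the classical complement pathway, is made mainly by these cells and marks them in most tissues. Folr2, the beta folate receptor, is typical of long-resident tissue macrophages, whereas macrophages recently formed from blood monocytes tend to lack it and to carry Ccr2, Ly6c2 and MHC class II. Macrophages short of oxygen stabilize the transcription factor HIF-1, which induces glycolytic enzymes, Vegfa and lipid droplet genes, and macrophages that take up lipid and cell debris switch on Trem2, Gpnmb, Spp1 and the fatty acid binding proteins.

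Members were sequenced to a median of 7606 UMIs and 2303.5 genes in PEP-WT and 7234 UMIs and 2379 genes in PEP-619WW. Their median mitochondrial share was 2.84% and 2.14%, but 13.2% of PEP-WT members lay above 10% mitochondrial UMIs against 0.592% of PEP-619WW members. Among the 1763 and 1005 members with at least 500 genes and at most 10% mitochondrial UMIs, the median log2 ratios of the gene lists described below were 1.52 for MHC class II, -0.74 for lipid-associated and 0.15 for hypoxia genes, close to their values over all members. The libraries also differed in sex-linked RNA. Xist, the RNA that coats the inactive X chromosome, was found in 660 PEP-WT members (32.4%) and in none of the PEP-619WW members, whereas a transcript of Ddx3y, Eif2s3y, Kdm5d or Uty from the Y chromosome was found in 792 PEP-WT members (38.8%) and 602 PEP-619WW members (59.4%). Only 57 PEP-WT members (2.79%) held both kinds. The PEP-WT pool therefore held Xist-expressing and Y-expressing cells and only Y-expressing cells were found in the PEP-619WW pool. Genotype and library cannot be told apart anywhere in these data, and a restriction to members with a Y-linked transcript, given below, removes only the difference in Xist.

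Defining markers of liver cells and of spleen-resident macrophages were low or absent in the members, with exceptions. Alb and Apoa1 of hepatocytes and Clec4f and Timd4 of Kupffer cells had 0 UMIs in both libraries, but the Kupffer cell gene Cd5l had 136 UMIs in PEP-WT and 13 in PEP-619WW, and Vsig4 had 2 and 0. Spic, the factor that specifies red pulp macrophages, was at 3.56 and 4.40 counts per 1000000 UMIs of the group (CPM) in PEP-WT and PEP-619WW. Vcam1 and Hmox1, which red pulp macrophages share with other macrophages, were at 199 and 18.0 CPM and at 762 and 884 CPM. Melanocytic genes were present: Dct, a melanin enzyme, was at 71.0 in the PEP-WT members and 295 in the other barcodes of that library, against 9.66 and 5.92 in PEP-619WW. Hemoglobin Hbb-bs stood at 237 in PEP-WT members and at 0.611 in PEP-619WW members, with 4139 and 27.9 in the other barcodes. Here and below, other barcodes and those outside the gate leave out Folr2-positive barcodes that met the remaining conditions. The 8 T cell genes summed to 7.60 and 40.6 CPM in the 2 member groups, the 6 NK cell genes to 7.06 and 52.3, and the 8 dendritic cell genes to 9.53 and 68.7. Values without barcodes that held a UMI of another lineage's markers, which left 896 and 471 members, stand beside the lists they moved. Of the members, 20 in PEP-WT and 11 in PEP-619WW shared their barcode with a barcode of another library of the series.

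The gate gave cells with the markers of macrophages. C1qc, which the rule did not use, had 2074 CPM in PEP-WT members and 1158 in PEP-619WW members, against 850 and 122 in the barcodes outside the gate. The Folr2-positive barcodes, left out of both, had 2158 and 1663. Cd68 was found in 93.8% and 92.8% of members, Adgre1 (F4/80) in 70.1% and 58.4%, Fcgr1 (CD64) in 65.0% and 71.0%, and the efferocytosis receptor Mertk in 25.4% and 24.0%. In PEP-619WW, monocyte markers came with them: Ccr2, the receptor that draws monocytes out of marrow, was found in 85.3% of members, against 32.0% in PEP-WT. Ly6c2 was found in 33.7% and 4.85%, but at equal depth its share in PEP-619WW, 22.0% (19.4 to 24.7), was not distinguishable from the 18.8% (14.2 to 24.1) of neutrophil-like barcodes, those with at least 20 UMIs of S100a8 and S100a9 and none of C1qa, C1qb or Csf1r. The dendritic cell gene Flt3 was at 0.162 and 3.54 CPM. Among the 15 genes with the highest ratio of members to the barcodes outside the gate in both libraries were Vcam1, Axl, C1qc, Cxcl9 and Ch25h, with ratios of 2.38 to 2.90 in PEP-WT and of 2.38 to 9.51 in PEP-619WW, which follow from how the members were chosen and are no test.

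The Folr2 threshold fell within a continuous distribution. Of all barcodes that met the other conditions, 50.2% in PEP-WT (48.6 to 51.7) and 74.9% in PEP-619WW (72.5 to 77.2) had no Folr2 UMI, and after each barcode was thinned at random to 2000 UMIs these became 77.8% and 87.6%, so the share without Folr2 moved with depth. Just outside, 681 PEP-WT barcodes and 157 PEP-619WW barcodes had exactly 1 Folr2 UMI, with median depths of 9249 and 7113 UMIs. Just inside the C1q limit, 47 and 57 members summed to 5, and 72 and 71 barcodes just outside it summed to 4. A Csf1r count of 1 held 846 and 299 members, and 1139 and 335 barcodes failed only by having none. Single UMIs of Cd3e excluded 5 and 24 barcodes and those of Cd79a excluded 0 and 3.

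The main comparison asked how the members differed between genotypes. Of 9446 genes with at least 100 UMIs over both member groups, 459 (4.86%) were at least 2-fold higher and 480 (5.08%) at least 2-fold lower in PEP-619WW, and the median log2 ratio of PEP-619WW over PEP-WT was 0.09. Genes of recently recruited monocytes, MHC class II and interferon responses were higher in PEP-619WW members, whereas cell cycle genes and part of the lipid-associated genes were lower. The medians of the hypoxia, glycolysis, and lipid transport and sterols lists lay close to that of all genes. The sterol synthesis genes given below were higher in PEP-619WW, each by less than 2-fold. MHC class II had 8 of 8 measured genes past 2-fold higher, monocyte-derived genes 11 of 12 and interferon-stimulated genes 23 of 38, and the cell cycle had 16 of 18 past 2-fold lower. Some of these differences were not particular to the members. In the barcodes outside the gate, MHC class II summed to 6086 CPM in PEP-WT and 14948 in PEP-619WW. Monocyte-derived genes summed there to 3020 and 4953, interferon-stimulated genes to 3692 and 5615, and the cell cycle to 1428 and 1380.

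**Figure D1:**
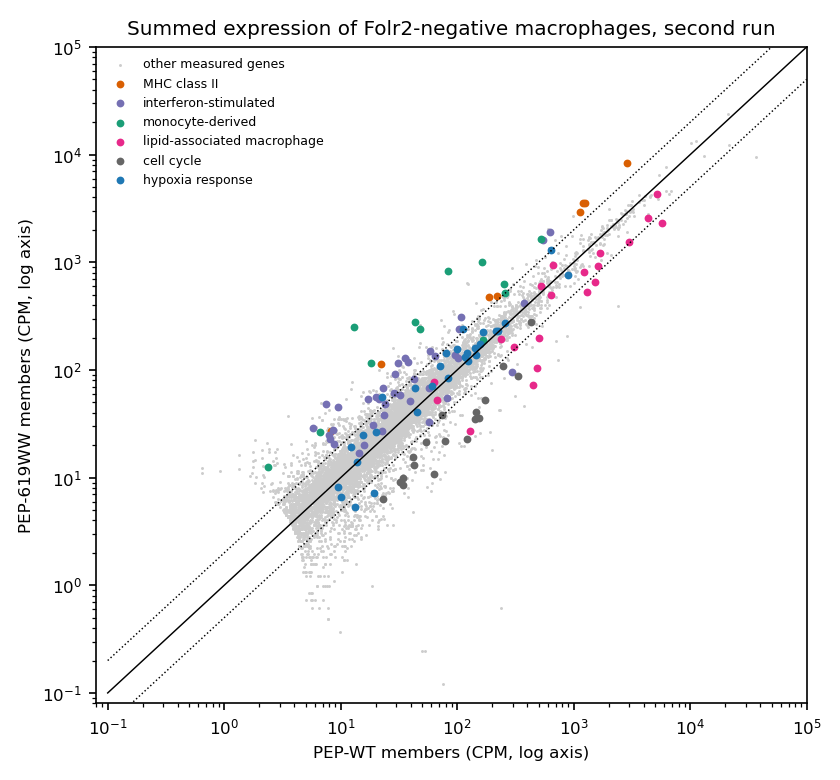
Summed expression of each measured gene in PEP-WT members (horizontal, CPM, log axis) and PEP-619WW members (vertical, same unit), 1 point per gene, with 6 gene lists colored, the solid line at equal levels and the dotted lines at 2-fold. MHC class II, interferon-stimulated and monocyte-derived genes lie mostly above the upper dotted line and cell cycle genes below the lower one, while hypoxia genes follow the solid line, and the 5 genes at 0 in 1 library are not drawn.

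**Figure D2:**
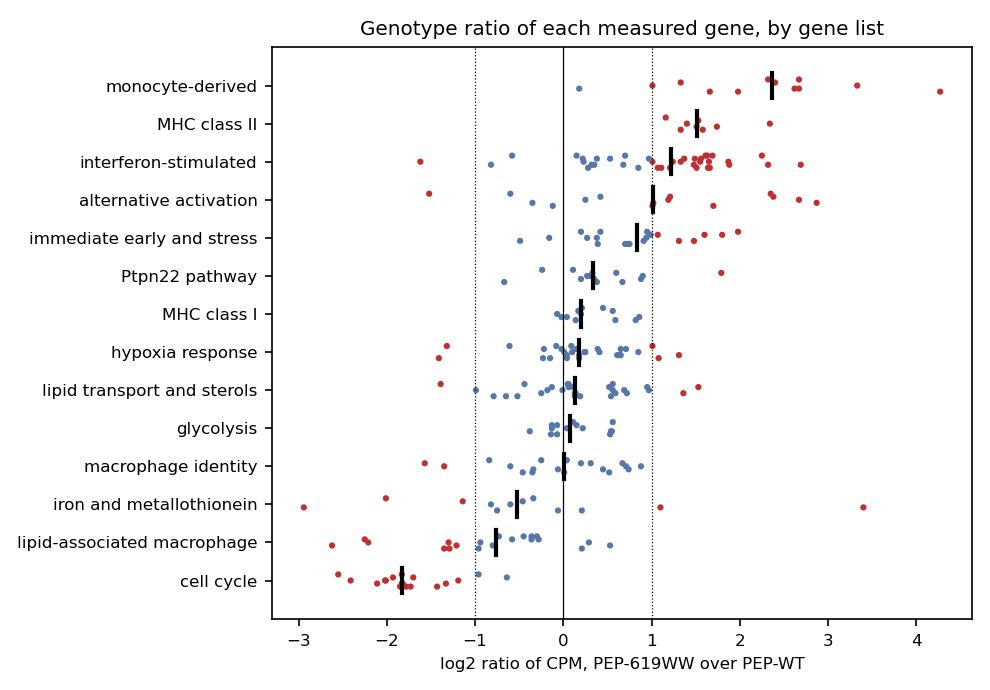
The log2 ratio of CPM, PEP-619WW over PEP-WT, of each measured gene (points, red past 2-fold) in 14 gene lists, with the median of each list as a black bar and dotted lines at 2-fold. Medians run from 2.36 for monocyte-derived genes to -1.82 for cell cycle genes, and those of hypoxia response, lipid transport and sterols and glycolysis lie between 0.08 and 0.18.

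Ptpn22 itself, which encodes the phosphatase PEP (GRCm38 chromosome 3, 103859795 to 103912247, plus strand), was at 24.6 CPM in PEP-WT members and 39.0 in PEP-619WW members, a log2 ratio of 0.67 (0.46 to 0.88). The edit changes a codon, and a tag at the 3' end of the RNA does not read it, so this level does not check the genotype labels. Of the 14 measured genes around PEP, 1 was past 2-fold higher and 0 lower, near the 4.86% and 5.08% of all genes, with a median log2 ratio of 0.34. Fgr, a Src-family kinase of myeloid cells, was the one past 2-fold, at 25.1 CPM in PEP-WT and 86.5 in PEP-619WW, Csk, the kinase that partners with PEP, was at 66.6 and 123, and Irf5, a transcription factor downstream of Toll-like receptors, was at 81.4 and 152. Tlr7, a sensor of single-stranded RNA, was at 38.4 and 24.1.

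Few hypoxia genes differed by 2-fold. Of the 29 measured genes of the hypoxia response list, 3 were past 2-fold higher and 2 past 2-fold lower in PEP-619WW, against 4.86% and 5.08% of all genes, with a median log2 ratio of 0.18 beside 0.09 for all genes. Intervals lay above a log2 ratio of 0 in 18 of the 29 and below it in 4, against 3415 and 2218 of all 9446 genes. The list summed to 3941 CPM in PEP-WT and 4959 in PEP-619WW, a log2 ratio of 0.33. Most of this difference in the sum lay in Arg1, a gene of the list, given below. Hif1a, the oxygen-regulated subunit of HIF-1, was at 113 CPM in PEP-WT and 239 in PEP-619WW (log2 ratio 1.08, 0.99 to 1.17). Egln3, an oxygen-sensing prolyl hydroxylase that HIF induces, was at 22.8 and 56.6 (1.31, 1.12 to 1.51). Arg1, the arginase that HIF and interleukin-4 signals both induce, was at 641 and 1290 (1.01, 0.97 to 1.05). In the other direction, Adm, which encodes the vasodilator adrenomedullin, was at 19.2 and 7.21 (-1.41, -1.83 to -1.01), and P4ha2, a collagen prolyl hydroxylase, at 13.4 and 5.38 (-1.32, -1.82 to -0.85).

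Apart from Arg1, several abundant HIF targets differed little between genotypes. Hilpda, which protects lipid droplets from lipolysis in hypoxic cells, was at 216 CPM in PEP-WT and 230 in PEP-619WW (log2 ratio 0.09, 0.01 to 0.17), Bnip3, a mitophagy receptor, at 158 and 175, Higd1a at 257 and 276, Fam162a at 224 and 229, and Ndrg1 at 142 and 160. Mif, a secreted inhibitor of macrophage migration, was at 894 and 761. Vegfa, the endothelial growth factor, was at 43.3 and 67.6 (0.64, 0.49 to 0.80) and Slc2a1, the glucose transporter GLUT1, at 122 and 145 (0.25, 0.15 to 0.35), both under 2-fold. At equal depth Hilpda was found in 23.8% and 22.7% of members (unthinned 41.2% and 37.6%) and in 72.2% and 60.2% of neutrophil-like barcodes, which use these genes themselves. None of the 14 measured glycolysis genes passed 2-fold in either direction, and their median log2 ratio was 0.08. Gapdh was at 2446 and 2231, Pkm at 1010 and 924, Ldha at 900 and 855, and Eno1, the most divergent of the abundant glycolytic enzymes, at 277 and 403.

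Hypoxia genes are known to carry the HIF-binding core ACGTG near their starts, and the promoters of Hif1a and Egln3, chosen for display after their values were seen because both passed 2-fold, are given from RefSeq (build GRCm38.p6, 250 bases before to 50 after the start, 5′ to 3′ on the gene's strand) with the core on either strand in capitals.
Hif1a (chr12:73907617-73907916, plus strand): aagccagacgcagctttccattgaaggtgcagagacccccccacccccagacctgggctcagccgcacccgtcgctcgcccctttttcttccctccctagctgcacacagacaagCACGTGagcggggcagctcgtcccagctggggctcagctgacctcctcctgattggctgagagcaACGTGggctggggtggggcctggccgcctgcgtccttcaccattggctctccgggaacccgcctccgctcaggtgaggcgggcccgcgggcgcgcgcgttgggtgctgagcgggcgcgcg
Egln3 (chr12:54203825-54204124, minus strand): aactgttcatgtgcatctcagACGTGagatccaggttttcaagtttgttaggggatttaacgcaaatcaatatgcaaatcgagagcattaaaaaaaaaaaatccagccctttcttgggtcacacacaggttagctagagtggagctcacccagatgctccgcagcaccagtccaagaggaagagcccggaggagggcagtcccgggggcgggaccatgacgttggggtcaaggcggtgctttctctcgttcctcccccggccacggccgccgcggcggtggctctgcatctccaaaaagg
The core or its other strand, CACGT, was in the first listed promoter of 17 (68.0%) of the 25 list genes that the RefSeq table held, of 30 in the list, and in 5315 (19.7%) of 27025 promoters of all genes. Of the genes past 2-fold lower, the Adm window held no match and the P4ha2 window held 2. A match is a description of the sequence and not of binding.

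The lipid-associated macrophage list was lower in PEP-619WW, at a sum of 29569 CPM in PEP-WT members and 17830 in PEP-619WW members. In the barcodes outside the gate it was lower in PEP-619WW too, at 30007 and 11072, so the difference was not particular to the members. Of its 20 measured genes, 7 were past 2-fold lower and 0 higher, against 5.08% and 4.86% of all genes, 17 had intervals below a log2 ratio of 0, and the median was -0.76. Trem2, the lipid and debris receptor that sets this state, was at 507 CPM in PEP-WT and 198 in PEP-619WW (-1.35, -1.43 to -1.28). Gpnmb, a lysosomal glycoprotein, was at 487 and 105 (-2.21, -2.31 to -2.11), Fabp4 at 448 and 72.7 (-2.62, -2.75 to -2.50) and Fabp5 at 5698 and 2319 (-1.30, -1.32 to -1.27), both encoding fatty acid carriers. Syngr1 was at 128 and 26.9, the tetraspanin Cd63 at 1294 and 529, and cathepsin Ctsl at 1515 and 656. Melanocytic genes moved the same way, with 5 of 6 past 2-fold lower and a sum of 179 CPM in PEP-WT members and 65.4 in PEP-619WW members. Gpnmb is also a gene of melanocytes, and the part of their RNA in these values was not tested.

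Other members of the list differed less. Spp1, osteopontin, was at 1604 CPM in PEP-WT and 923 in PEP-619WW (log2 ratio -0.80), Lpl, lipoprotein lipase, at 1223 and 819 (-0.58), Plin2, the lipid droplet coat, at 640 and 499 (-0.36), and Lgals3, galectin-3, at 5196 and 4267 (-0.28). Capg, Anxa2 and Itgax were the 3 genes above 0, with Anxa2 at 659 and 952. At equal depth of 2000 UMIs, Trem2 was found in 58.3% of PEP-WT members (56.1 to 60.6) and 28.2% of PEP-619WW members (25.4 to 31.2), against 84.9% and 56.5% before thinning. In neutrophil-like barcodes, which should lack it, the thinned shares were 8.33% in PEP-WT and 0.781% in PEP-619WW. These barcodes numbered 174 and 737, with median depths of 1325.5 and 1590 UMIs, and all their thinned shares cover only the deepest 36 and 256 of them, which held the 2000 UMIs that thinning needs. Barcodes with a UMI of C1qa, C1qb or Csf1r were left out of them, so for macrophage genes these shares may understate the background of stray RNA. With 36 such barcodes the PEP-WT intervals are wide, so an overlap does not show that the RNA in members was stray. For Fabp5 the share in members was 91.4% and 63.0%, and in neutrophil-like barcodes 86.1% (70.5 to 95.3) and 42.2%, so in PEP-WT its share in members was not distinguishable from that background. Both PEP-WT shares were near the upper limit of a share, which leaves little room to separate them. Gpnmb was found in 35.8% (33.7 to 38.0) and 11.5% (9.53 to 13.6) of thinned members, 55.2% and 21.0% unthinned, and in 22.2% (10.1 to 39.2) and 8.20% (5.15 to 12.3) of neutrophil-like barcodes, so its share was not distinguishable from the background in either library. Spp1 was found in fewer members, 46.3% and 31.3% (unthinned 66.6% and 45.6%), than neutrophil-like barcodes, 63.9% and 49.6%, so its share did not stand above that background.

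Lipid transport and sterol genes had a median log2 ratio of 0.13 in 29 measured genes, with 2 past 2-fold higher and 1 lower, near the 4.86% and 5.08% of all genes. Their values went both ways. Apoe, the lipoprotein that carries exported cholesterol and the most abundant of the list after Psap, was at 4360 CPM in PEP-WT and 2781 in PEP-619WW (-0.65, -0.67 to -0.63), the cholesterol exporter Abca1 at 195 and 98.4 (-0.99, -1.10 to -0.88), the scavenger receptor Cd36 at 237 and 137 (-0.79, -0.89 to -0.70) and the oxysterol enzyme Ch25h at 32.1 and 12.2 (-1.39, -1.71 to -1.09). Abcg1, another cholesterol exporter, was at 122 and 127 (0.06, -0.05 to 0.16), and the endocytic receptor Lrp1 at 371 and 388. Srebf2, a transcription factor that activates sterol synthesis genes, was at 27.7 and 54.4 (0.97), the synthesis genes Idi1, Sqle and Hmgcs1 had log2 ratios of 0.95, 0.69 and 0.59, and Insig1, which restrains the pathway, had 0.56. Apoc2, the cofactor of lipoprotein lipase, was at 36.1 and 92.4 (1.36, 1.2 to 1.51). Summed over the list, levels were 12346 and 10506, a log2 ratio of -0.23 of the opposite sign to the median.

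**Figure D3:**
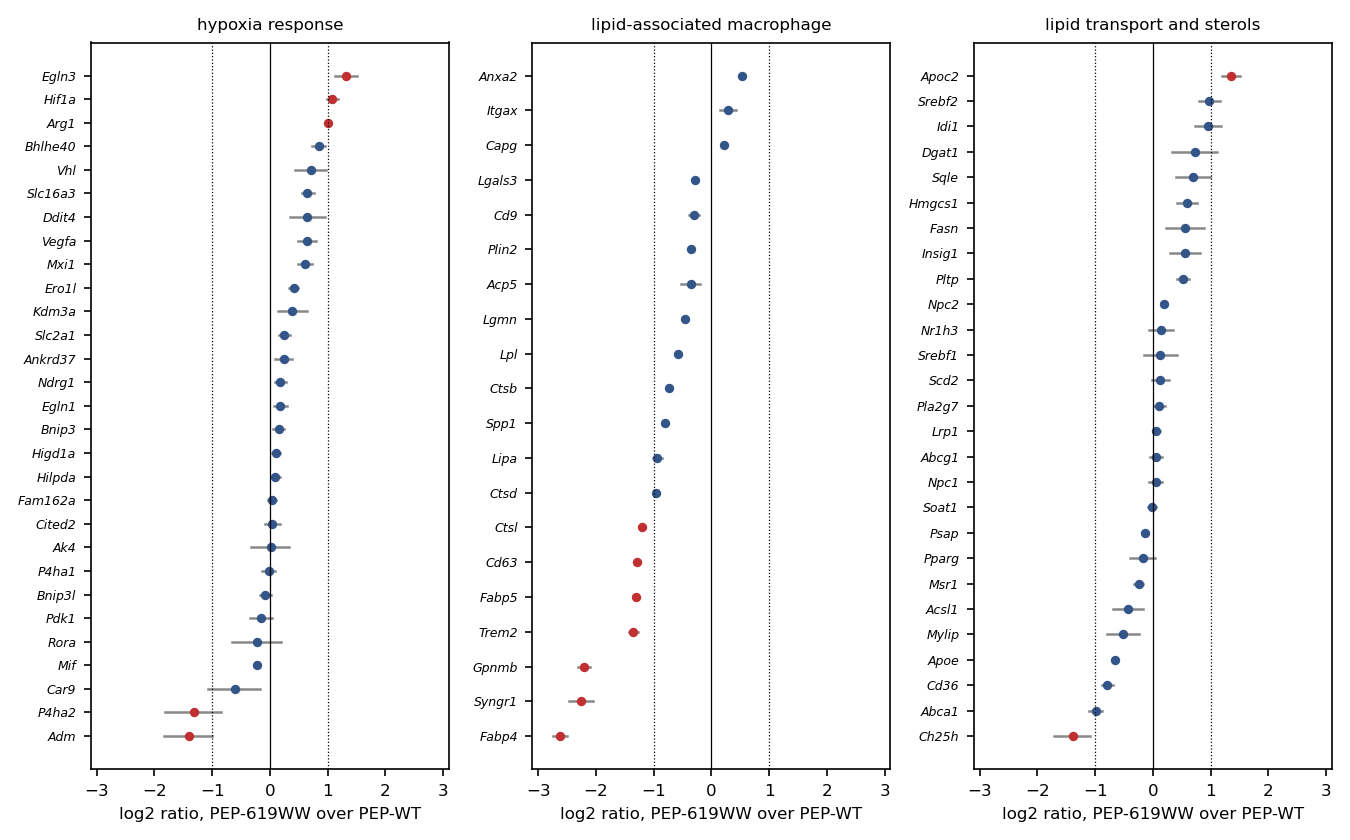
The log2 ratio of CPM, PEP-619WW over PEP-WT (horizontal), of measured genes (rows) in the hypoxia response, lipid-associated macrophage and lipid transport and sterols lists, with exact 95% intervals for counting error as bars, red points past 2-fold and dotted lines at 2-fold. Hypoxia genes spread on both sides of 0 around a median of 0.18, 17 of 20 lipid-associated genes lie below 0, and the sterol genes drawn run from Ch25h at -1.39 to Apoc2 at 1.36, with 2 genes of that list not drawn.

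MHC class II genes were higher in PEP-619WW in 8 of 8 measured genes, all past 2-fold, with a median log2 ratio of 1.52. The chains that present peptide to CD4 T cells, H2-Aa and H2-Ab1, were at 1198 and 1254 CPM in PEP-WT and at 3594 and 3581 in PEP-619WW. Cd74, the invariant chain, was at 2872 and 8305 (1.53, 1.52 to 1.55), the peptide loader H2-DMa at 220 and 491 (1.16), and Ciita, the transactivator on which these genes depend, at 22.4 and 113 (2.34, 2.17 to 2.51). After thinning, H2-Ab1 was found in 56.7% of PEP-WT members (54.5 to 59.0) and 84.1% of PEP-619WW members (81.6 to 86.3), unthinned in 76.2% and 90.4%, and in 19.4% and 22.3% of neutrophil-like barcodes. None of 12 measured MHC class I genes passed 2-fold in either direction, with a median of 0.21, H2-K1 at 1033 and 1136 and B2m at 1944 and 2239. Of 15 costimulation and checkpoint genes 4 passed 2-fold higher and 0 lower, against 4.86% and 5.08% of all genes, with Cd80 at 7.27 and 20.4 and Cd86 at 39.5 and 79.1, both ligands of CD28. Dendritic cell genes were also higher in PEP-619WW, by the sums given above, and without the barcodes that held a UMI of another lineage's markers the MHC class II median was 1.42.

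Interferon-stimulated genes had 23 of 38 measured genes past 2-fold higher in PEP-619WW and 1 lower, with a median log2 ratio of 1.23. Ifitm3, which blocks viral entry, was at 626 CPM in PEP-WT and 1913 in PEP-619WW (1.61, 1.58 to 1.65), Ifi27l2a at 550 and 1621 (1.56), Ifi204, a DNA-binding protein, at 108 and 309 (1.51), and the ubiquitin-like Isg15 at 103 and 238 (1.21). At equal depth Ifitm3 was found in 50.5% and 79.1% of members (unthinned 73.3% and 92.6%) and in 52.8% (35.5 to 69.6) and 68.0% (61.9 to 73.6) of neutrophil-like barcodes, which also express it, so in PEP-WT its share was not distinguishable from theirs. The largest ratios belonged to Ifi205 (7.43 and 47.9, log2 2.69), Isg20 (5.82 and 29.1, 2.32) and Oas3 (9.53 and 45.4, 2.25). Of the list, 3 genes had intervals below 0: Cxcl9, a chemokine that draws T cells, at 295 and 95.8 (-1.62, -1.73 to -1.51), Iigp1 at 57.8 and 32.6 (-0.82), and Gbp2 at 82.2 and 55.1 (-0.58). Igtp, Irgm1 and Cxcl10 lay on the other side of 0, with Igtp at 18.9 and 30.6 (0.70), Irgm1 at 32.4 and 58.2 (0.85) and Cxcl10 at 95.9 and 139 (0.53).

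Promoters of Isg15 and Ifit3, which were higher in PEP-619WW, and of Cxcl9, which was lower, were chosen for display after their values were seen. They are from RefSeq on GRCm38.p6, with GAAANNGAA, the core of the interferon-stimulated response element, in capitals on either strand.
Isg15 (chr4:156200769-156201068, minus strand): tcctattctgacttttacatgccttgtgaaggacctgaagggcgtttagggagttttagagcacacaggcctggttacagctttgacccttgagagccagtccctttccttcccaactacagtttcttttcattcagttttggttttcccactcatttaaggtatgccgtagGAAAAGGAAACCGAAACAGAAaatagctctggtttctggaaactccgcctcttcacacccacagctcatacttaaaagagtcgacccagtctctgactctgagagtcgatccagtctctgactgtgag
Ifit3 (chr19:34583279-34583578, plus strand): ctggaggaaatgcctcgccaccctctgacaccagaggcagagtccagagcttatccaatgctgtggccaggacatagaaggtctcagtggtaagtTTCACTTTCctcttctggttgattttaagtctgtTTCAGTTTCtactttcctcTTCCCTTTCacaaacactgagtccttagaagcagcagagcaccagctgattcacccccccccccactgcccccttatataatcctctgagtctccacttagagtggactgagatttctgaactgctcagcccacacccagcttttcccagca
Cxcl9 (chr5:92328030-92328329, minus strand): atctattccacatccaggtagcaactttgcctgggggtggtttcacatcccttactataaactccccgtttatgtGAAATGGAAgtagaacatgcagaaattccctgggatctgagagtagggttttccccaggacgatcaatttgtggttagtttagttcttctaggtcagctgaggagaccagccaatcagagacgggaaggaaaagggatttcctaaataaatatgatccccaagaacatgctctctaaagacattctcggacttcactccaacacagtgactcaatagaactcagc
Isg15 held 3 overlapping matches that began 78, 72 and 66 bases before the start, Ifit3 held 3 separate ones that began at -155, -121 and -102, and Cxcl9 held 1 at -175. GAAANNGAA or TTCNNTTTC was in 23 (74.2%) of the 31 list genes found in the table, of 40, and in 2317 (8.57%) of 27025 promoters. Genes of the list that were past 2-fold higher without a match included Oasl2 and Irf7.

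Monocyte-derived genes were the list with the highest median log2 ratio of those in the plot by list, 2.36, with 11 of 12 measured genes past 2-fold higher. Ly6c2, the surface marker of inflammatory monocytes, was at 13 CPM in PEP-WT and 251 in PEP-619WW (4.27, 4.08 to 4.47), Plac8 at 82.9 and 831 (3.33), Ccr2 at 163 and 1001 (2.62), Ms4a4c at 43.6 and 277 (2.67), and the matrix genes Fn1 and Vcan at 520 and 1643 and at 47.8 and 239. At equal depth Ccr2 was found in 19.7% of PEP-WT members (17.9 to 21.6) and 70.2% of PEP-619WW members (67.3 to 73.1). In neutrophil-like barcodes it was found in 5.56% (0.680 to 18.7) and 15.6% (11.4 to 20.7). Its share was thus not clearly separate from that background in PEP-WT and lay above it in PEP-619WW. Plac8 was found in 8.26% (7.06 to 9.59) and 47.2% (44.0 to 50.4) of members, against 5.56% (0.680 to 18.7) and 30.5% (24.9 to 36.5) of neutrophil-like barcodes, so its share was not distinguishable from that background in PEP-WT and lay above it in PEP-619WW. Ly6c2 did not stand above it in either library, with 2.12% (1.52 to 2.87) of PEP-WT members against 0% (0 to 9.74) and the PEP-619WW shares given above. Without the barcodes that held a UMI of another lineage's markers, the median of the list was 1.54. Few PEP-619WW members lacked all of Ly6c2, Ccr2 and Plac8: 96, beside 1285 in PEP-WT. Between these, a comparison added after the data were seen, the MHC class II median was 0.97, the interferon-stimulated median 0.30, the lipid-associated median -0.50 and the cell cycle median -0.44. A range was formed from the medians of the genes' lower and upper interval bounds. Here and below, such a range describes the counting error of a typical gene and is not an interval of the list median. The range was -0.35 to 0.84 for interferon-stimulated genes (31 measured) and -0.96 to 0.05 for cell cycle genes (18 measured), both including 0.

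Alternative activation genes had 9 of 15 past 2-fold higher and 1 lower, against 4.86% and 5.08% of all genes, with a median of 1.02, or 0.73 after thinning. Retnla was at 122 CPM in PEP-WT and 639 in PEP-619WW, Chil3 at 18.2 and 116, Ccl24 at 124 and 632, Ccl17 at 33.5 and 109, Ccl22 at 6.73 and 49.1, and Mgl2 at 149 and 301, all of them genes that interleukin-4 induces in mouse macrophages. Retnla was carried by few members, 4.66% (3.75 to 5.71) and 8.16% (6.51 to 10.1) after thinning and 8.24% and 11.5% before it, against 5.56% (0.680 to 18.7) and 1.17% (0.242 to 3.39) of neutrophil-like barcodes. The dendritic cell genes, which summed to 9.53 and 68.7 CPM, moved with Ccl17 and Ccl22, which dendritic cells also express, and their part in these values was not tested. The mannose receptor Mrc1 was at 1142 and 898 (-0.35), and Stab1, a scavenger receptor of resident macrophages, at 326 and 114 (-1.52). Inflammatory cytokines divided, with 5 of 27 past 2-fold higher and 4 lower, against 4.86% and 5.08% of all genes. Their median log2 ratio was 0.16 and that of their summed level -0.21, of the opposite sign. Il1b was at 48.2 and 261 (2.44) and Ccl5 at 31.0 and 136, whereas the monocyte attractants Ccl8 and Ccl12 were at 2425 and 395 (-2.62) and at 1130 and 387 (-1.54), and Nos2 at 21.3 and 7.82. Ccl8 was found in 63.8% and 9.40% of members after thinning and in 41.7% (25.5 to 59.2) and 1.17% of neutrophil-like barcodes.

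Cell cycle genes were lower in PEP-619WW in all 18 measured genes, 16 of them past 2-fold, with a median log2 ratio of -1.82, and of -1.36 without the barcodes that held a UMI of another lineage's markers. Mki67 was at 173 CPM in PEP-WT and 52.2 in PEP-619WW (-1.73), Top2a at 155 and 36.1 (-2.11) and the mitotic kinase Cdk1 at 63.5 and 10.9 (-2.55). After thinning, Mki67 was found in 19.4% of PEP-WT members (17.7 to 21.3) and 3.62% of PEP-619WW members (2.53 to 4.99), unthinned in 34.5% and 8.29%. In neutrophil-like barcodes it was found in 5.56% (0.680 to 18.7) and 1.95% (0.637 to 4.50). Neither share was clearly separate from that background, which in PEP-WT rests on 36 barcodes. After leaving out every barcode that held a UMI of 12 cell cycle genes, which left 651 PEP-WT and 746 PEP-619WW members and was added after the data were seen, medians were 1.17 for MHC class II, 1.13 for interferon-stimulated genes, 1.70 for monocyte-derived genes, -0.89 for lipid-associated genes, 0.06 for hypoxia genes and -0.01 for lipid transport and sterols (27 genes measured), beside 0.13 over all members (29 genes).

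Iron genes had 3 of 12 past 2-fold lower and 2 higher in PEP-619WW, against 5.08% and 4.86% of all genes. Their sum was 37034 CPM in PEP-WT members and 23766 in PEP-619WW members, and 40840 and 16615 in the barcodes outside the gate. The ferritin chains Fth1 and Ftl1 were at 21668 and 13263 CPM in PEP-WT and at 12278 and 9660 in PEP-619WW, the exporter Slc40a1 (ferroportin) at 28.1 and 3.67 (-2.94), and the transferrin receptor Tfrc at 69.8 and 17.4 (-2.01). Hmox1, which degrades heme, was at 762 and 884. Hemoglobin RNA was higher in PEP-WT, as given above, and its part in these values was not tested. Of 20 immediate early and stress genes, 6 passed 2-fold higher and 0 lower, against 4.86% and 5.08% of all genes, with Hspa1b at 94.7 and 331 and Btg2 at 54.4 and 165. Of the 20 measured complement and phagocytosis genes 1 passed higher and 2 lower, near the 4.86% and 5.08% of all genes: C3 at 23.1 and 65.8, Stab1 as above, and Gas6, the bridging ligand of Axl and Mertk, at 156 and 25.9 (-2.59), while the receptor Axl was at 75.2 and 102. Macrophage identity genes had 0 of 19 higher and 2 lower, against the same shares, Trem2 and the tetraspanin Cd81 (251 and 84.5), with a median of 0.01.

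By the bound of the interval nearer to 0, the 12 genes most higher in PEP-619WW were Gzma, Ly6d, Ly6c2, Ltb, Plac8, Nkg7, Cd209a, Hp, Ccr7, Ifit1bl1, Dmkn and Ms4a4b. Most of these were rare: Gzma, a granzyme of cytotoxic lymphocytes, had 149 UMIs in PEP-619WW and 0 in PEP-WT (at least 113-fold higher, against a floor of 3 counts in the library, with a lower bound of 6.50 for the interval of the log2 ratio), and was found in 2.57% of PEP-619WW members. Ly6d had 128 and 0 UMIs (at least 96.8-fold higher, with a lower log2 bound of 6.28) in 0.987% of members. Ltb, Nkg7 and Ms4a4b, of lymphocytes, were at 12.3, 11.1 and 20.9 CPM in PEP-619WW, and Ccr7 and Cd209a, of dendritic cells, at 16.1 and 22.5. Hp, haptoglobin, was broader, found in 15.2% of PEP-619WW members and 1.96% of PEP-WT members.

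The 12 genes most lower in PEP-619WW were Xist, Hbb-bs, Hba-a1, Hbb-bt, Hba-a2, H2-M2, Tsix, Mgll, Vcam1, Plpp3, Plau and Gng11. Xist had 4596 UMIs in PEP-WT and 0 in PEP-619WW (at least 675-fold lower, with an upper bound of -9.10 for the interval of the log2 ratio) and Tsix, its antisense RNA, 219 and 0. Whether reads were counted by strand was not stated, so these antisense partners cannot be told apart. Vcam1, the adhesion receptor for leukocyte integrins, was at 199 and 18.0 CPM (-3.47, -3.71 to -3.23) and was found in 44.2% and 5.73% of members. Plau, the urokinase protease, was at 375 and 46.7 (-3.0, -3.16 to -2.86) in 67.5% and 19.2% of members. Mgll, which hydrolyzes monoacylglycerol, was at 18.6 and 0.978 (-4.25, -5.48 to -3.26).

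The PEP-WT members themselves could be divided by sex-linked RNA, a division made after the data were seen. The 603 with Xist and no Y-linked transcript and the 735 with a Y-linked transcript and no Xist differed by 2-fold or more in 33 (0.408%, higher with Xist) and 46 (0.569%, lower with Xist) of 8091 genes, the sex-linked genes included, a smaller share than between genotypes. MHC class II summed to 6999 and 6646 CPM in these, and to 18921 in the 602 PEP-619WW members with a Y-linked transcript. Interferon-stimulated genes summed to 2841, 3004 and 6325, and monocyte-derived genes to 1786, 1330 and 5523. The lipid-associated list varied within PEP-WT, at 35913 with Xist and 26492 with a Y-linked transcript, against 17154 in PEP-619WW. The cell cycle list varied too, at 1688 and 2644, against 917. Of 36 measured interferon-stimulated genes, 6 were past 2-fold lower and 0 higher with Xist. Of 14 measured alternative activation genes, 3 were past 2-fold higher and 0 lower with Xist. Ccl17 was at 108 CPM with Xist and 8.29 with a Y-linked transcript in PEP-WT, against 152 in PEP-619WW members with a Y-linked transcript. In the same order, Iigp1 was at 18.3, 67.6 and 33.1 and Nos2 at 9.57, 22.6 and 8.05. Depth and RNA of other cell types moved with this division: the 603 had a median of 6939 UMIs and the 735 of 10613, melanocytic genes summed to 322 and 116, with 5 of 6 past 2-fold higher with Xist, and erythroid genes to 21.7 and 445. Their part in the lipid-associated values was not tested. Gpnmb was at 862 with Xist and 339 with a Y-linked transcript in PEP-WT and at 100 in PEP-619WW. Restricted to members with a Y-linked transcript in both libraries, the genotype medians were 1.53 for MHC class II, 1.13 for interferon-stimulated genes, -0.70 for lipid-associated genes, 0.19 for hypoxia genes, 0.16 for lipid transport and sterols and -1.84 for the cell cycle, each close to its value over all members.

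Members varied widely in the lists that differed between genotypes. At 2000 UMIs per barcode, MHC class II took a median of 0.300% of UMIs in PEP-WT members, with 10th and 90th percentiles of 0% and 2.00%, and a median of 1.80% in PEP-619WW members, with 0.10% and 4.45%. The lipid-associated list took 2.70% (1.2% to 5.35%) in PEP-WT and 1.55% (0.550% to 3.47%) in PEP-619WW, and the hypoxia list 0.250% (0.0500% to 0.95%) and 0.300% (0.0500% to 1.40%). The upper end of the hypoxia distribution was thus higher in PEP-619WW while the medians differed by 1 UMI in 2000. Arg1 counts in this list, and its part in the upper end was not tested.

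Across members, hypoxia and glycolysis genes varied together, with Spearman rho of 0.73 over 1889 PEP-WT and 0.79 over 968 PEP-619WW members at equal depth. The lipid-associated list tracked the lipid transport list (0.47 and 0.37) and ran opposite to MHC class II (-0.29 and -0.43). Hypoxia had little relation with MHC class II (-0.03 and -0.13) or with interferon-stimulated genes (0.07 and -0.06). It had rho of 0.20 and 0.30 with lipid-associated genes and -0.16 and -0.04 with lipid transport genes. With monocyte-derived genes it had 0.22 and 0.23, and with the cell cycle -0.24 and -0.02. These are descriptions over cells that share a library, and summed counts at a fixed depth compete for the same UMIs.

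The members were also divided by C1qa plus C1qb, which the rule used, so the classes are a description and support nothing. The median was 37 UMIs in PEP-WT and 20 in PEP-619WW. In 4 classes of C1qa plus C1qb per 10000 UMIs (under 20, 20 to 50, 50 to 100, and 100 or more), PEP-WT had 187, 626, 964 and 263 members and PEP-619WW had 300, 402, 248 and 63. MHC class II was higher in PEP-619WW in all 4 classes, at 19576, 19416, 19953 and 18754 CPM against 8462, 6170, 6168 and 10495. The lipid-associated list was lower in all 4, at 17119, 17938, 19032 and 16778 against 32547, 33750, 27099 and 26926. The hypoxia list was lower in each higher C1q class in both libraries, from 6760 to 1958 in PEP-WT and from 5651 to 2760 in PEP-619WW, and its genotype order changed, lower in PEP-619WW in the lowest class and higher in the 2 highest. Arg1 counts in these sums, and its part was not tested. Lipid transport genes were higher in each higher class, from 8845 to 18591 in PEP-WT and from 8865 to 16293 in PEP-619WW.

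**Figure D4:**
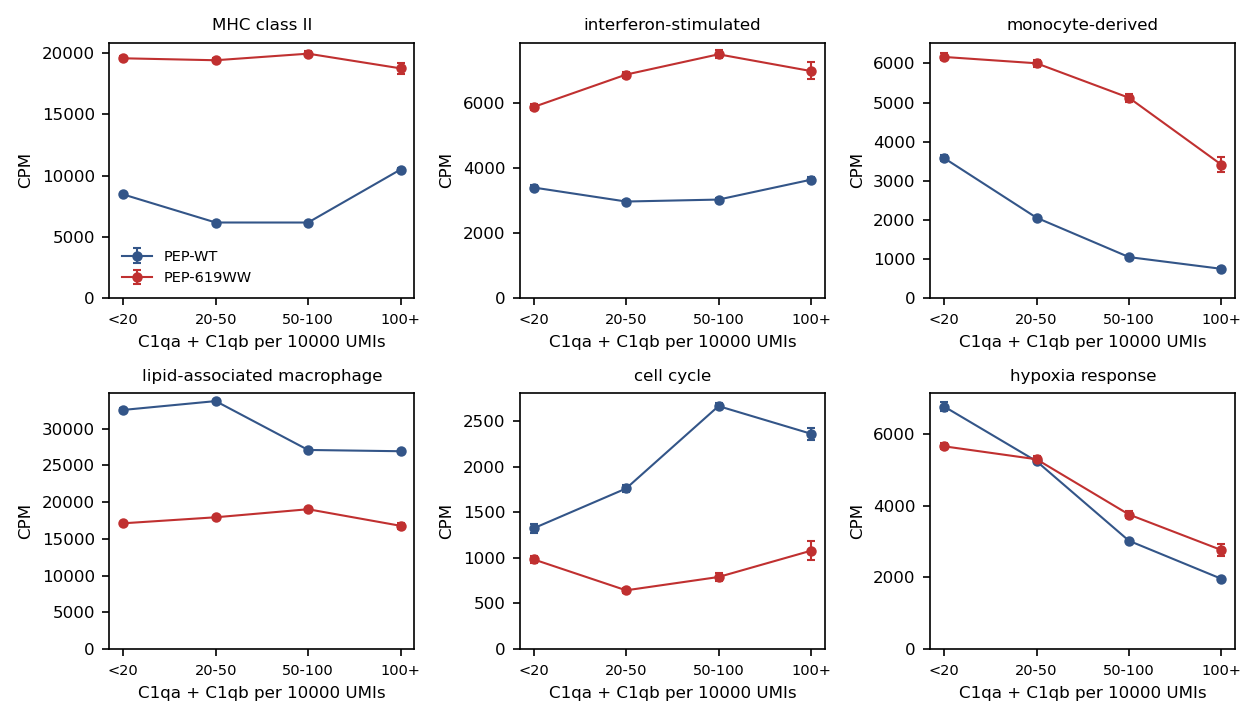
Summed CPM of 6 gene lists (vertical) in members grouped by C1qa plus C1qb per 10000 UMIs (horizontal), in PEP-WT (blue) and PEP-619WW (red), with exact 95% Poisson intervals for counting error as bars. MHC class II, interferon-stimulated and monocyte-derived genes are higher and lipid-associated and cell cycle genes lower in PEP-619WW in all 4 classes, while the hypoxia lines fall together from the lowest to the highest class and cross.

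Folr2-negative members were compared with the 2026 PEP-WT and 340 PEP-619WW barcodes that passed the same gate with at least 1 Folr2 UMI, all thinned to 2000 UMIs, because Folr2-positive barcodes were deeper (medians of 12870 and 8126 UMIs). Of 7977 genes with at least 20 UMIs in each library, 33 (0.414%) were at least 2-fold higher and 11 (0.138%) at least 2-fold lower in Folr2-negative cells in both libraries. The genes ranked highest in Folr2-negative cells included the MHC class II genes Ciita and H2-DMb2, the cytokine Il1b and the chemokine Ccl17. Ciita was at 24.4 CPM against 5.28 in PEP-WT and at 97.6 against 35.9 in PEP-619WW, H2-DMb2 at 8.21 against 0.754 and at 22.2 against 4.49, Il1b at 57.7 against 14.8 and at 287 against 95.8, and Ccl17 at 17.5 against 0.251 and at 59.9 against 15. Cd300e, Bex6, Hspb1 and Mcemp1 completed the 8 highest. Some of these ratios rest on very few UMIs in Folr2-positive cells, so their intervals are wide. In PEP-WT the log2 ratio was 6.12 (3.59 to 11.44) for Ccl17 and 3.44 (1.76 to 5.80) for H2-DMb2. In PEP-619WW that of Cd300e was 1.86 (-0.18 to 4.99), which included 0. With all UMIs, the PEP-619WW log2 ratio was 0.65 for H2-DMb2 and 0.83 for Bex6, both under 2-fold, beside 2.31 (0.66 to 4.64) and 1.86 (0.39 to 3.80) thinned. MHC class II genes had median log2 ratios of 1.40 and 0.92, with 3 of 8 past 2-fold in both libraries. The inflammatory cytokine list had medians of 0.30 and 0.23 and 1 of 26 genes past 2-fold higher in both, and its summed log2 ratios were -0.49 and -0.61, of the opposite sign to its medians.

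The genes ranked lowest in Folr2-negative cells included Ednrb, Cbr2 and Ltc4s. The endothelin receptor Ednrb was at 33.9 against 185 in PEP-WT and 39.8 against 199 in PEP-619WW, Cbr2 at 61.4 against 211 and 46.0 against 311, and Ltc4s, the leukotriene C4 synthase, at 31.2 against 111 and 14.5 against 58.4. Padi4, Npl, Etv1, Calml4 and Stard8 were the others of the 8 lowest. The tissue macrophage list had medians of -0.25 and -0.32, with 0 of 6 measured genes past 2-fold in both libraries. Hypoxia genes had medians of 0.17 and 0.33 and none past 2-fold in both libraries, with Hilpda at 229 against 158 (0.53, 0.38 to 0.68) and at 263 against 157 (0.74, 0.44 to 1.06). Lipid-associated genes had medians of -0.11 and -0.20, and Trem2, Spp1 and Gpnmb each lay within a log2 ratio of 0.50 of the Folr2-positive level in both libraries.

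**Figure D5:**
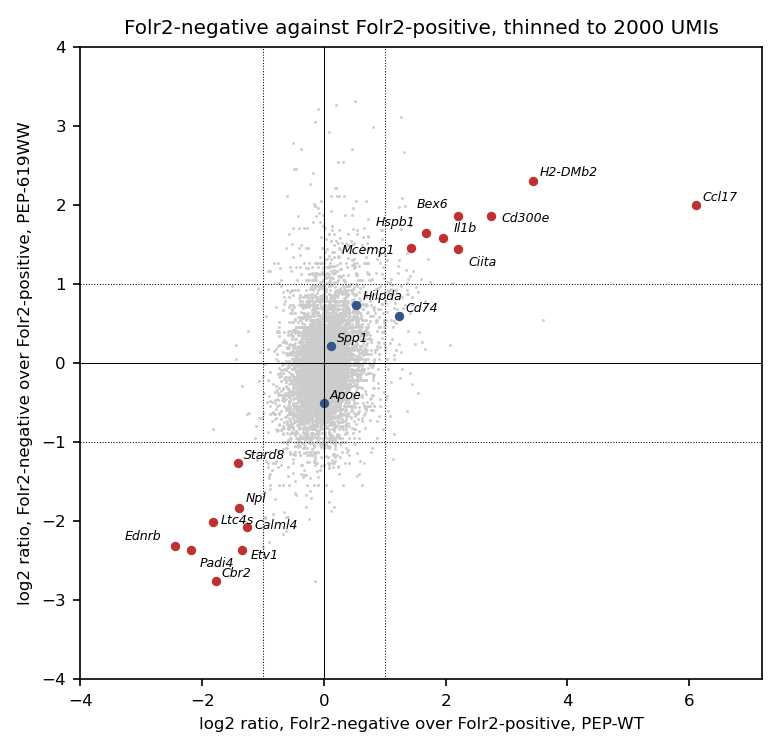
The log2 ratio of Folr2-negative over Folr2-positive barcodes, thinned to 2000 UMIs, in PEP-WT (horizontal) and PEP-619WW (vertical), 1 point per gene with at least 20 UMIs in each library, with the 16 genes named by rank in red, 4 others in blue and dotted lines at 2-fold. Ccl17, H2-DMb2, Il1b and Ciita are in the upper right corner and Ednrb, Cbr2 and Ltc4s in the lower left.

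The genotype differences of the MHC class II, interferon-stimulated, lipid-associated and cell cycle lists were also present in the Folr2-positive cells, which are other barcodes of the same 2 libraries. Not every difference was: Pf4, given below, changed sign, and the glycolysis median was -0.16 in Folr2-positive cells and 0.08 in members. The median log2 ratios of PEP-619WW over PEP-WT were 2.37 for MHC class II, 1.80 for interferon-stimulated genes, -0.68 for lipid-associated genes, 0.01 for hypoxia genes and -1.86 for the cell cycle, beside 1.52, 1.23, -0.76, 0.18 and -1.82 in the Folr2-negative members. H2-Ab1 was at 411 and 2104 CPM in Folr2-positive PEP-WT and PEP-619WW cells and Hif1a at 99.5 and 229. No difference of these ratios between the 2 cell groups was tested.

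In the first run the same gate found 174 members in PEP-WT and 147 in PEP-619WW, with 0 and 1 Folr2-positive barcodes. There the median log2 ratio of PEP-619WW over PEP-WT was -0.22 for MHC class II (8 genes measured), -0.27 for interferon-stimulated genes (39) and 0.23 for lipid-associated genes (17), opposite in sign to the second run, and 0.37 for monocyte-derived genes (14) and -1.0 for the cell cycle (10), of the same sign. For interferon-stimulated genes the range of median interval bounds, -0.52 to 0.05, included 0. Of 4052 genes measured there, 41 were past 2-fold higher and 51 lower. Xist was at 826 and 803 CPM of all barcodes in the 2 first-run libraries and Ddx3y at 0 in both. The second run is the one whose barcode numbers the study's methods state, and no source used here says what the first was or how the 2 runs relate, so tissue, pool and sex-linked RNA cannot be told apart as what differs between them.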

How the data were processed

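Single cell RNA-seq libraries (10x Genomics 3' v3) were made by the authors from pooled mice, with 1 library per genotype and run. The deposited tables hold raw UMI counts for each gene in each barcode, which the authors made with Cell Ranger (6.0.0 per the labels' processing notes, whereas the study's methods name a later release) on mm10. Whether reads were counted by strand was not stated. Of 32285 Ensembl identifiers, 32158 were matched to a symbol. No table column was left unused for want of a sample.

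Members were gated on raw UMIs in both tables of the second run (PEP-WT and PEP-619WW), and UMIs were summed per library and scaled to counts per 1000000 UMIs (CPM). A gene entered the genotype comparison with at least 100 UMIs over both member groups, and the ratio, called at 2-fold, has an exact binomial interval (95%) of counting error. A library at 0 was given a floor of 3 counts. Intervals describe these libraries and not the spread between mice, and with 1 library per genotype no test was run. Thinning drew 2000 UMIs per barcode at random, leaving out 151 PEP-WT and 45 PEP-619WW members. Neutrophil-like barcodes had at least 20 UMIs of S100a8 and S100a9 and none of C1qa, C1qb or Csf1r. No doublet caller was run, and no cells were clustered. Scripts were tested on simulated data.

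The members and the gene lists were chosen with earlier results of these data known. Named genes were the 12 highest and 12 lowest by the interval bound nearer 0 that kept direction after thinning, the 8 highest and 8 lowest in the Folr2 comparison by the smaller of the 2 libraries' ratios, the 15 leading genes, and from each list up to 6 with the most UMIs and up to 4 with the largest ratio, of which some are printed. In addition, 2 genes of the lipid transport list are counted but not reported here. A few further list genes were chosen after their values were seen. Computation used numpy 2.4.6 and scipy 1.17.1 under python 3.11.15, and plots used matplotlib 3.10.9.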

Additional observations from a re-analysis of the deposited data

Results flagged for a closer look

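Pf4, a platelet and macrophage chemokine, had a genotype difference of opposite sign in the 2 kinds of macrophage. The log2 ratio of PEP-619WW over PEP-WT was -0.64 in Folr2-negative members (1921 and 1233 CPM) and 0.44 in Folr2-positive barcodes (3160 and 4293), with both intervals away from 0. With 1 library per genotype, the difference was not tested.

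In the first run, outside the main comparison, the gate held 1.71% of PEP-619WW barcodes (1.45 to 2.01) and 1.17% of PEP-WT barcodes (1.01 to 1.36), the reverse of the order in the second run.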

How the results depend on the processing

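No paired analysis was possible because each genotype had 1 library. Among the alternatives, of which the restriction to Y-linked transcripts and the removal of barcodes with monocyte or cell cycle UMIs were chosen after seeing the data, the counts of genes past 2-fold higher and lower moved from 459 and 480 to 242 and 208 after thinning, 270 and 216 without other-lineage markers, 41 and 51 in the first run, 820 and 896 at a minimum of 20 UMIs, 2341 and 3422 with no minimum, 161 and 300 without monocyte markers and 275 and 121 without cell cycle UMIs. Fewer genes reach 100 UMIs with fewer barcodes, and otherwise the cause was not tested.

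The lipid-associated median of -0.76 reversed to 0.23 in the first run and became -0.86 after median-centring, -0.87 as a mean per barcode, -0.90 after thinning, -0.70 with Y-linked transcripts, -0.50 without monocyte markers and -0.89 without cell cycle UMIs. The hypoxia median of 0.18 became 0.31 in the first run, with 10 genes measured and a range of median interval bounds of -0.09 to 0.85. It became 0.06 without monocyte markers and without cell cycle UMIs. That of lipid transport and sterols (0.13) became -0.09 after thinning, with 26 genes measured, but 0.10 thinned over the same 29 genes, and -0.01 without cell cycle UMIs, with 27 measured. MHC class II (1.52) reversed to -0.22 in the first run and became 1.43 after centring, 1.56 at a C1q minimum of 10 or a minimum of 20 UMIs, 1.42 without other lineages, 1.41 without the deepest 10% of barcodes, 0.97 without monocyte markers and 1.17 without cell cycle UMIs. Interferon-stimulated genes (1.23) became -0.27 in the first run and 0.30 without monocyte markers. The ranges of median interval bounds, -0.52 to 0.05 and -0.35 to 0.84, both included 0. Monocyte-derived genes (2.36) became 1.54 without other lineages, 0.37 in the first run, 1.17 without monocyte markers, with 5 genes measured, and 1.70 without cell cycle UMIs. Cell cycle genes (-1.82) became -2.06 as a mean per barcode, -2.33 after thinning, -1.36 without other lineages, -2.54 without the deepest 10% of barcodes, -1.0 in the first run, -0.44 without monocyte markers and -0.52 without cell cycle UMIs, with 5 genes measured. The range of the value without monocyte markers, -0.96 to 0.05, included 0. The alternatives for MHC class II, interferon-stimulated, monocyte-derived and cell cycle genes were also added after seeing the data. The Folr2 comparison gave 44 genes thinned and 42 with all UMIs.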
